A study of Bos taurus and Bos indicus with 12 samples.

Results

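Genes of skeletal muscle fibres were followed in biopsies of whole skin from 12 female cattle, each read on 1 Affymetrix bovine array. The list held 35 genes, and 29 of them had a probe set that carried their symbol in the platform annotation, out of 9155 genes named there. These 29 genes had 49 of the 24016 probe sets tested. MYLPF, MYH2, TNNI1, MYBPC2, CASQ1 and CAV3 are not analysed here, because no probe set carried their symbol. Where a gene had more than 1 probe set, as 10 did, the one with the highest mean over the 12 arrays was read.

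Of the 4 groups of 3 animals, 2 had never met the cattle tick Rhipicephalus microplus. These tick-naive animals were Holstein-Friesian, a taurine dairy breed, aged 12 months, and Brahman, an indicine (zebu) beef breed, aged 18 months. The other 2 groups, of the same breeds, had passed through successive heavy infestations, were 6 months old, and were sampled where larvae about 24 h old were attached. Each punch was 8 mm across and took the full skin to a depth of about 10 mm. The labels give neither the body site nor whether tissue beneath the skin was trimmed away. Naive and infested animals were different animals, so rose and fell below mean higher and lower in infested than in naive animals, not a change over time. Age and infestation cannot be told apart within either breed. As the naive breeds differed in age, neither can breed and age among naive animals, nor breed and age gap in the comparison of the 2 infestation effects.

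Skeletal muscle shortens when myosin of the thick filament pulls on actin of the thin filament, under the control of calcium binding to troponin. Slow fibres and fast fibres build this machine from different members of the same gene families, so the isoforms present show which kind of fibre gave the RNA. Skin itself holds smooth muscle in its vessels and hair erector muscles, while in cattle sheets of skeletal muscle lie under the skin of parts of the body. The members were used here to read how much skeletal muscle RNA each biopsy held, and of which fibre type.

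Values are log2 expression by RMA (robust multi-array average), so 1 unit is a doubling, and levels of different probe sets are not compared. A gene was called at an adjusted p under 0.05 in limma (lmFit and eBayes, Benjamini-Hochberg over all 24016 probe sets, two-sided). Array medians lay between 6.58 and 6.73. RNA integrity, read as the 5′ minus 3′ signal of control transcripts, lay between -1.39 and -0.82 in the naive arrays, between -2.73 and -0.75 in infested Holstein-Friesian and between -4.91 and -2.07 in infested Brahman arrays.

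The members did not separate the 4 groups so much as single animals. Naive Brahman 2 and naive Brahman 3 held the most skeletal muscle RNA of the 12 biopsies, naive Holstein-Friesian 2 came next, and naive Brahman 1 lay with the infested arrays. Averaged over the 29 genes, the level relative to each gene's mean over the 12 arrays was -0.46, 1.27 and 1.82 in naive Brahman 1, 2 and 3. It was -0.39, 0.22 and -0.16 in naive Holstein-Friesian animals. In the infested arrays it was -0.27, -0.46 and -0.50 in Holstein-Friesian and -0.24, -0.34 and -0.49 in Brahman animals, so all 6 infested biopsies lay within a narrow band. In bulk RNA, fewer muscle fibres in a punch and less muscle RNA per fibre cannot be told apart.

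**Figure D1:**
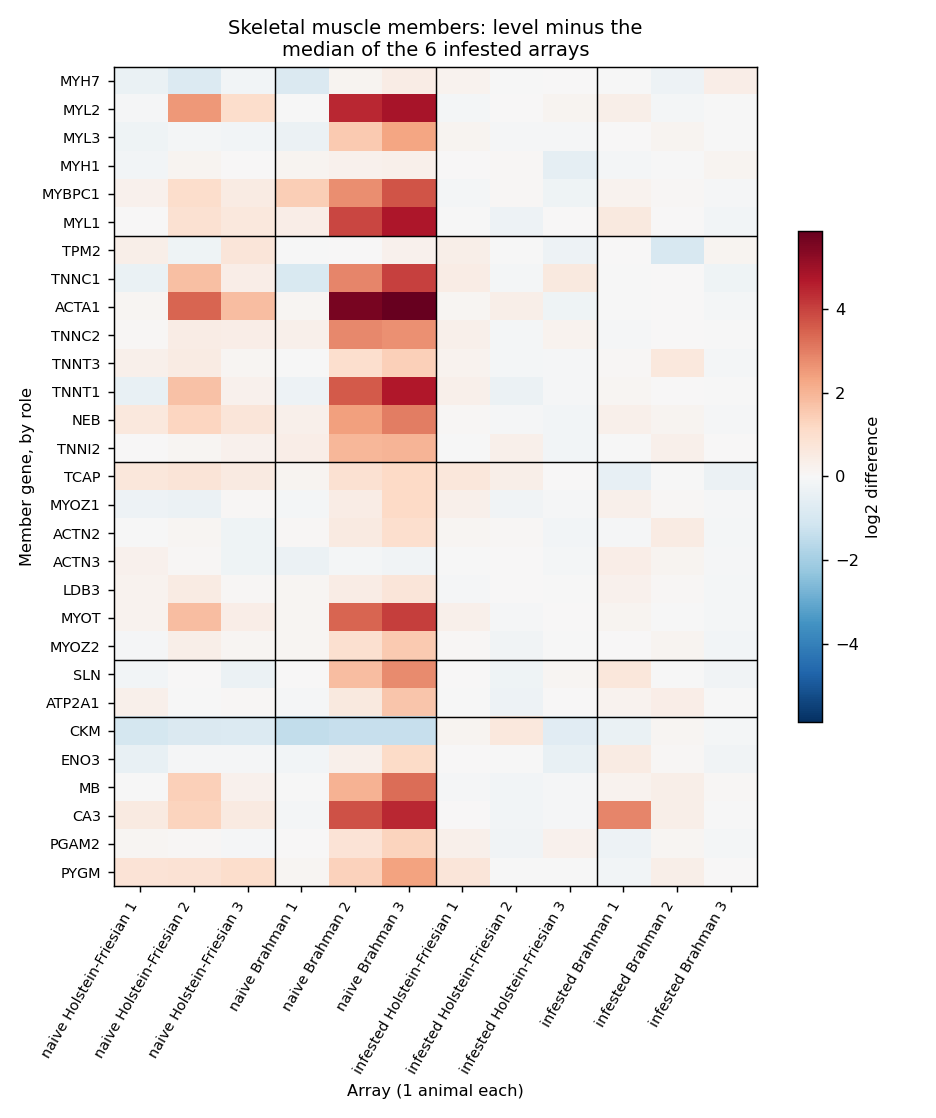
Level of each of the 29 members (rows, ordered by role from thick filament at the top to energy genes at the bottom) in each of the 12 arrays (columns), as log2 difference from the median of the 6 infested arrays. Most members are red in naive Brahman 2 and 3 and, more faintly, in naive Holstein-Friesian 2; naive Brahman 1 is pale apart from MYBPC1 (red, 1.44) and CKM (blue).

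Naive Brahman 3 was the highest of the 12 arrays for 25 of the 29 members, and naive Brahman 2 the second highest for 22. Both took the top places for 23 members, and for 12 of these the third place went to naive Holstein-Friesian 2. Against the highest of the 6 infested arrays, naive Brahman 3 stood higher for 26 members, naive Brahman 2 for 24, naive Holstein-Friesian 2 for 15 and naive Holstein-Friesian 3 for 9. Naive Brahman 1 and naive Holstein-Friesian 1 stood higher for 5 members each. The spread over the 12 arrays reached 4 log2 units for 7 of the 29 members, against 1.25% of all probe sets tested.

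Skeletal alpha actin, ACTA1, the actin of the adult thin filament, spanned 6.14 log2 units, more than any other member at the probe set read. It stood at 4.83, 8.14 and 6.52 in naive Holstein-Friesian arrays 1, 2 and 3 and at 4.84, 10.32 and 10.59 in the naive Brahman arrays. In the infested arrays it stood at 4.84, 5.08 and 4.45 in Holstein-Friesian and at 4.71, 4.73 and 4.60 in Brahman animals. Within each naive group ACTA1 thus ran from the infested level to far above it, and the group means of 6.50 ± 1.66 and 8.59 ± 3.24 (SD, n = 3) describe no single animal. The difference of infested from naive animals was -3.91 ± 1.27 (SE) in Brahman and -1.71 ± 1.27 in Holstein-Friesian animals, and neither passed by limma (adjusted p = 0.0525 and 0.476). Without naive Brahman 1 the Brahman difference was -5.78. Naive Brahman 1 is the array of its group at the infested level. That fit therefore keeps only the high arrays, and no pass is read from it.

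Among the thick filament genes, MYL2 encodes the regulatory light chain of slow and cardiac myosin. MYL2 stood at 4.79, 7.42 and 5.89 in naive Holstein-Friesian and at 4.82, 9.29 and 9.73 in the naive Brahman arrays, against 4.75 to 5.22 in all 6 infested arrays. MYL1, the essential light chain of fast myosin, stood at 4.06, 4.92 and 4.67 in naive Holstein-Friesian and at 4.43, 7.96 and 8.77 in naive Brahman animals. Among infested animals MYL1 stood at 4.04, 3.75 and 4.04 in Holstein-Friesian and at 4.61, 4.08 and 3.89 in Brahman animals. Naive Brahman 1 lay below infested Brahman 1 for MYL1, so the groups overlapped, although MYL1 was lower in infested than in naive Brahman animals by limma (log2 difference -2.86 ± 0.84 SE, adjusted p = 0.0356). The slow essential light chain MYL3 stood at 4.63, 6.54 and 7.31 in the naive Brahman arrays and at 4.72 to 5.13 in the other 9.

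MYBPC1, the slow form of myosin binding protein C, was the one called fall that passed under all 21 alternative settings in which it was tested; the low-signal filter left it out. It stood at 5.59, 6.90 and 7.84 in naive Brahman animals and at 4.37, 4.20 and 4.09 in infested ones, with no overlap. In Holstein-Friesian animals it stood at 4.39, 5.18 and 4.64 in the naive and at 4.04, 4.22 and 3.90 in the infested group. The fall in Brahman animals was 5.88-fold, or -2.56 ± 0.44 log2 (SE, adjusted p = 0.00384 by limma). MYBPC1 was also raised in naive Brahman 1, by 1.44 over the median of the infested arrays, the largest excess of the 29 members in that array. At its second probe set the naive Brahman arrays stood at 5.76, 5.18 and 5.63, with the muscle-poor naive Brahman 1 highest. The infested Brahman arrays stood at 5.33, 4.72 and 5.04 there, and all 6 Holstein-Friesian arrays between 4.41 and 4.61. No comparison passed at that probe set, the difference between naive Brahman and naive Holstein-Friesian being 0.99 ± 0.18 (SE, adjusted p = 0.184 by limma). The third MYBPC1 probe set was dim, spanned 0.32 over the 12 arrays and followed neither.

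The 2 myosin heavy chain members depended on the probe set. For MYH7, the slow and cardiac heavy chain, the probe set of highest mean lay between 9.90 and 11.19 in all 12 arrays. It kept the order of the other members only within the naive Brahman group, at 9.90, 10.95 and 11.19. Naive Holstein-Friesian 2 stood at 9.98 there and the infested arrays at 10.46 to 11.17. A second MYH7 probe set followed the members in the other groups too. It stood at 6.11, 8.38 and 9.39 in the naive Brahman arrays, 7.10 in naive Holstein-Friesian 2 and 5.80 to 6.32 in the infested arrays. The third MYH7 probe set spanned 0.50 and was highest in infested Brahman 3. For MYH1, the heavy chain of fast type 2X fibres, 8 probe sets were present. The brightest spanned 4.49 to 5.34, whereas the next stood at 5.15, 8.02 and 7.96 in naive Brahman, at 4.92, 4.15 and 4.77 in infested Brahman and at 3.83 to 4.38 in all 6 Holstein-Friesian animals. At that probe set, the one of largest span, MYH1 was lower in infested than in naive Brahman animals (-2.43 ± 0.61 SE, adjusted p = 0.0193 by limma). The 3 naive Brahman arrays lay above the 3 infested ones there. The remaining MYH1 probe sets were dimmer and spanned only 0.27 to 0.78. Among these, the one of span 0.78 was also lower in infested Brahman animals (-0.48 ± 0.15 SE, adjusted p = 0.0416 by limma). No other MYH1 probe set passed in that comparison, and the highest array differed among them, so the MYH1 call holds for part of its probe sets.

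**Figure D2:**
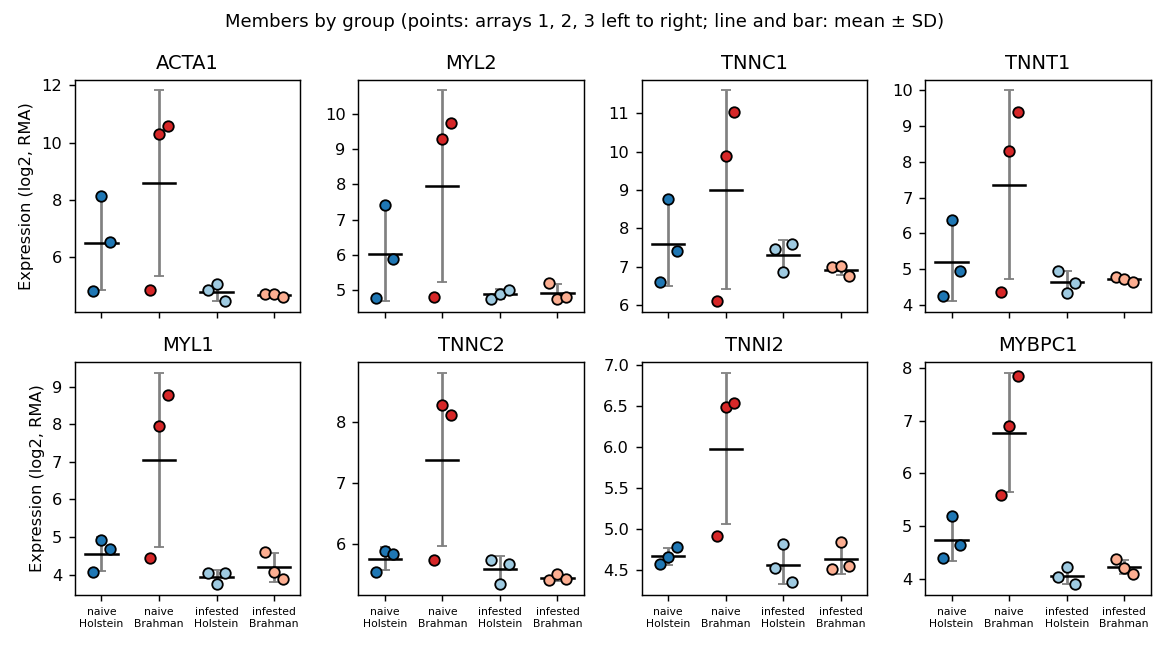
Log2 expression of 8 members (panels, each with its own axis range) in the 4 groups; points are arrays 1, 2 and 3 from left to right, black lines the group means and grey bars 1 SD. In each panel naive Brahman 2 and 3 lie above all other arrays, while naive Brahman 1 lies at or near the infested level, except for MYBPC1, where it stands at 5.59.

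Troponin makes the thin filament sensitive to calcium, and its subunits come in slow and fast forms. The slow and cardiac calcium sensor TNNC1 stood at 6.61, 8.77 and 7.41 in naive Holstein-Friesian and at 6.09, 9.89 and 11.04 in the naive Brahman arrays. Its infested levels lay between 6.75 and 7.59, so that naive Brahman 1 was the lowest of all 12 arrays. The slow tropomyosin-binding subunit TNNT1 stood at 4.24, 6.39 and 4.95, then at 4.38, 8.30 and 9.38 in the same groups, and between 4.35 and 4.96 in infested animals. Neither slow gene passed in Brahman animals, with log2 differences of -2.09 ± 0.99 and -2.64 ± 1.00 (SE) between infested and naive arrays.

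Of the 3 fast troponin genes, 2 passed there. The fast calcium sensor TNNC2 stood at 5.74, 8.29 and 8.13 in naive and at 5.40, 5.50 and 5.42 in infested Brahman animals, without overlap. It was at 5.53, 5.88 and 5.84 in the naive and 5.73, 5.34 and 5.67 in the infested Holstein-Friesian arrays. TNNC2 fell by 1.95 ± 0.52 (SE, adjusted p = 0.0248 by limma) in Brahman animals. The fast inhibitory subunit TNNI2 stood at 4.91, 6.49 and 6.53 in the naive Brahman and at 4.51, 4.84 and 4.54 in infested Brahman animals, and at 4.35 to 4.82 in the 6 Holstein-Friesian arrays. TNNI2 fell by 1.35 ± 0.35 (SE, adjusted p = 0.0235). The fast tropomyosin-binding subunit TNNT3 ranged from 5.51 to 7.01 and did not pass.

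Nebulin, NEB, runs the length of the thin filament. Its level was 4.89, 5.56 and 4.99 in the naive and 4.35, 4.19 and 4.13 in the infested Holstein-Friesian arrays, and 4.58, 6.70 and 7.29 in the naive and 4.57, 4.45 and 4.21 in the infested Brahman arrays. The naive arrays lay above the infested ones in both breeds, although the lowest naive and the highest infested Brahman array, at 4.58 and 4.57, were nearly level. NEB fell by 1.78 ± 0.53 (SE, adjusted p = 0.0373 by limma) in Brahman animals. In Holstein-Friesian animals the difference was -0.92 ± 0.53 and did not pass (adjusted p = 0.34). These NEB values are from its probe set of highest mean. Its other probe sets spanned only 0.47 and 0.25 over the 12 arrays. TPM2, the beta tropomyosin gene that smooth muscle also uses, lay between 8.85 and 10.48 at its brighter probe set, with no rise in naive Brahman 2 or 3. At its dimmer probe set it stood at 3.75, 6.89 and 8.27 in the naive Brahman and at 4.44, 5.50 and 4.93 in naive Holstein-Friesian animals, against 3.89 to 4.34 in infested animals.

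Of the Z disc and membrane members, MYOT (myotilin), which cross-links actin at the Z disc, stood at 3.91, 7.23 and 7.84 in naive and at 3.95, 3.75 and 3.67 in infested Brahman animals. It stood at 4.01, 5.59 and 4.20 in the naive and at 4.09, 3.73 and 3.84 in the infested Holstein-Friesian arrays. MYOT fell by 2.53 ± 0.80 (SE, adjusted p = 0.0474 by limma) in Brahman animals, with naive Brahman 1 among the infested values. TCAP (telethonin), which anchors titin, stood at 8.50, 9.23 and 9.50 in the naive and at 7.87, 8.29 and 7.98 in the infested Brahman arrays. In Holstein-Friesian animals TCAP lay between 8.87 and 9.09 in the naive arrays, within that range in infested array 1, and at 8.66 and 8.38 in infested arrays 2 and 3. TCAP fell 2.04-fold in Brahman animals (-1.03 ± 0.25 SE, adjusted p = 0.0165), and its other probe set fell by 0.85 ± 0.24 (adjusted p = 0.0298). The 3 naive Holstein-Friesian arrays were thus close for TCAP, where ACTA1 and MYL2 put them far apart. The alpha actinin of fast fibres, ACTN3, spanned 6.22 to 6.91 and was not raised in naive Brahman 2 or 3, while MYOZ1, MYOZ2, ACTN2 and LDB3 had their highest value in naive Brahman 3 and spans of 0.82 to 1.75. The span of MYOZ2 depended on the probe set, as its other probe sets spanned 3.47 and 2.45. The wider of these stood at 3.35, 6.16 and 6.61 in the naive Brahman arrays, against 3.14 to 3.53 in infested animals.

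Calcium is pumped back into the store of the fibre by ATP2A1, the fast fibre pump, which the small membrane protein sarcolipin (SLN) restrains. SLN stood at 5.55, 7.36 and 8.34 in the naive Brahman arrays and between 5.21 and 6.22 in the other 9. ATP2A1 stood at 4.42, 5.07 and 6.12 and between 4.17 and 4.86. Neither gene passed in any comparison.

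Among genes for energy and oxygen, myoglobin (MB), the oxygen store of slow and oxidative fibres, stood at 5.94, 7.36 and 6.20 in naive Holstein-Friesian and at 5.94, 8.01 and 9.22 in the naive Brahman arrays, against 5.80 to 6.29 in infested animals. PYGM, the glycogen phosphorylase of muscle, PGAM2 and ENO3, muscle forms of glycolytic enzymes, were likewise highest in naive Brahman 3, PYGM at 6.59, PGAM2 at 6.68 and ENO3 at 8.03. Carbonic anhydrase 3 (CA3), abundant in slow fibres and also known from fat, stood at 4.42, 8.26 and 8.95 in the naive Brahman arrays and at 4.37 to 4.56 in the infested Holstein-Friesian arrays. It reached 7.41 in infested Brahman 1, against 4.88 and 4.48 in infested Brahman 2 and 3. In that array ACTA1 and MB, at 4.71 and 6.14, lay within the range of the other infested arrays. Other members had their highest infested value there, among them SLN (6.22), ENO3 (7.39), MYL1 (4.61) and MYL2 (5.22). PYGM (4.08), PGAM2 (5.10) and TCAP (7.87) had their lowest there. Infested Brahman 1 also had the highest level of adipocyte markers, 1.05, and the lowest integrity index of the 12 arrays, -4.91; their part in the CA3 value was not tested.

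The muscle creatine kinase gene CKM, which buffers ATP during contraction, gave opposite answers at its 2 probe sets. The brighter one stood at 8.51, 8.61 and 8.59 in the naive and at 9.55, 10.07 and 9.83 in infested Brahman animals, and at 8.92, 9.11 and 9.13 and then 10.09, 10.56 and 9.28 in the Holstein-Friesian arrays. It rose by 1.25 ± 0.27 (SE, adjusted p = 0.01 by limma) in Brahman animals. The dimmer probe set stood at 6.59, 7.98 and 9.19 in the naive and at 6.05, 6.13 and 5.70 in infested Brahman animals, and fell by 1.96 ± 0.50 (adjusted p = 0.0215). Only the dimmer one was raised in naive Brahman 2 and 3, as the other members were, so the direction for CKM depends on the probe set. Whether the brighter probe set reads the CKM transcript was not tested, and its call below carries that doubt. Of the 10 members with more than 1 probe set, the one of highest mean was not the one of largest span for 6, CKM, MYH1, MYH7 and TPM2 among them.

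The measured list held 8 fast fibre members (MYH1, MYL1, TNNC2, TNNI2, TNNT3, ACTN3, ATP2A1, MYOZ1) and 8 slow fibre members (MYH7, MYL2, MYL3, TNNC1, TNNT1, MYBPC1, MYOZ2, CA3). Relative to the mean of the 12 arrays, the fast levels were 1.03 and 1.39 in naive Brahman 2 and 3 and the slow levels 1.90 and 2.64. In naive Holstein-Friesian 2 the slow level was 0.37 and the fast level -0.10. Centring on the 12 arrays makes each level sum to 0 over them, so the sign of fast minus slow in the muscle-poor arrays is set by the muscle-rich ones and is not read here. Against the median of the 6 infested arrays, the median of the 8 slow members was 1.17 in naive Holstein-Friesian 2, 2.82 in naive Brahman 2 and 3.87 in naive Brahman 3. For the 8 fast members it was 0.15, 0.78 and 1.52. How strongly each probe set responds also sets these sizes, so a larger slow than fast excess within an array does not give the share of slow fibres.

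In naive Holstein-Friesian 2, 5 of the 8 slow members lay over 1 log2 above the infested median, led by MYL2 at 2.56, and 0 of the 8 fast members did, MYL1 coming closest at 0.88. In naive Brahman 2 it was 6 of the slow and 3 of the fast members, and in naive Brahman 3 it was 7 and 6. At the probe set of largest span for each gene, the counts in naive Brahman 2 and 3 were 8 and 8 for slow and 4 and 7 for fast members. That choice was made after the values were seen and favours probe sets that are high in these 2 arrays, so nothing is read from those counts. From naive Brahman 2 to naive Brahman 3 the slow members were higher by 0.24 (MYH7) to 1.15 (TNNC1), with a median of 0.73. The fast members ranged from -0.17 (TNNC2) to 1.05 (ATP2A1), with a median of 0.24, so the ranges of the fast and slow members overlapped widely. These are single biopsies with no replicate, and the differences between them carry no test.

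**Figure D3:**
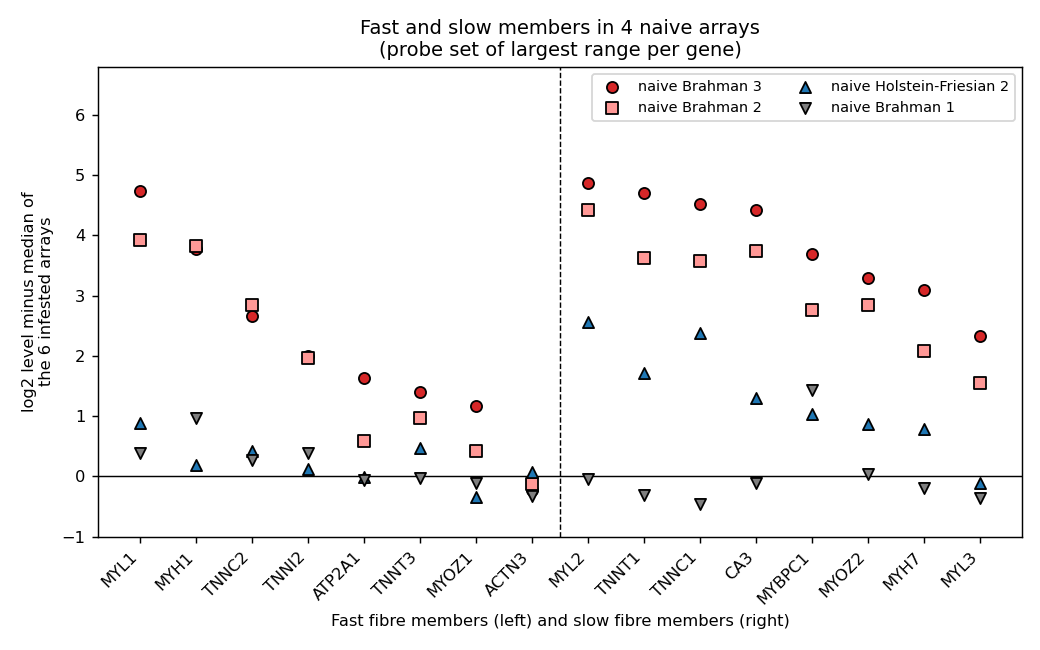
Level of 8 fast fibre members (left of the dashed line) and 8 slow fibre members (right) in 4 naive arrays, as log2 difference from the median of the 6 infested arrays, at the probe set of largest span, a choice that favours probe sets high in naive Brahman 2 and 3. Naive Holstein-Friesian 2 (blue triangles) is raised over 1 log2 for 5 slow members and for no fast member, and naive Brahman 3 lies above naive Brahman 2 for every slow member.

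In the comparison of infested with naive Brahman skin, 8 of the 29 members were called by limma, 7 lower (MYBPC1, MYL1, TNNC2, TNNI2, NEB, MYOT, TCAP) and 1 higher (CKM, at the brighter of its opposed probe sets). The calls were 27.6% of the members, against 19.8% of all probe sets, with 10.2% of all probe sets lower and 9.54% higher. The median log2 difference of the members was -1.13, against 0.04 over all probe sets tested, and 26 of the 29 lay below 0. Naive and infested arrays did not overlap for 7 members on the lower side and 2 on the higher side, against 19.3% of all probe sets on each side. How many members passed depended on single arrays. Without naive Brahman 1, the muscle-poor animal of its group, 20 of the 29 were called. That fit keeps only the muscle-rich naive Brahman arrays, so no pass is read from it. Without naive Brahman 2 or without naive Brahman 3 only 2 members were called, MYBPC1 and CKM. Calls over all 24016 probe sets also fell, from 4753 to 3154, 2702 and 2216 without naive Brahman 1, 2 and 3. The count of members was 5 without naive Holstein-Friesian 3, 4 without infested Brahman 2 and 3 without infested Brahman 3. Over all probe sets it was 4089, 3925 and 4441 in these fits. With the integrity index as a covariate 2 members were called, and 1808 of all probe sets. Of the 12 fits with 1 array left out, MYBPC1 and CKM passed in 12, TCAP in 10, TNNI2 in 9, TNNC2 in 8, MYL1 in 7, NEB in 4 and MYOT in 1.

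**Figure D4:**
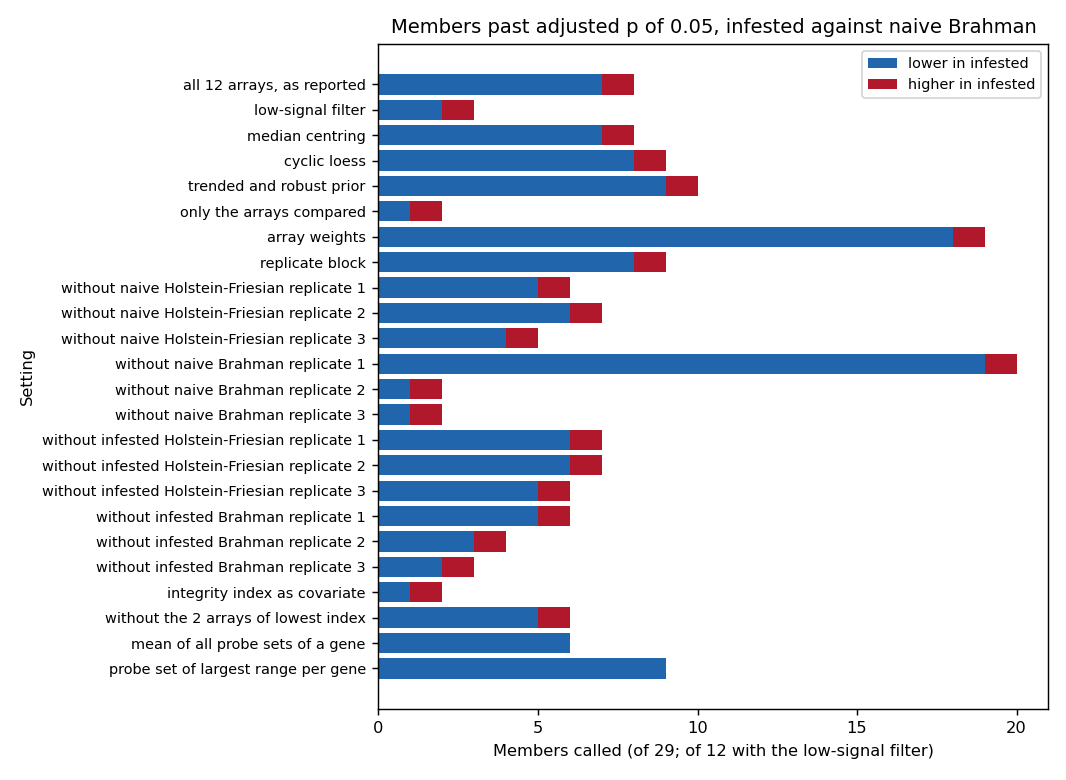
Number of the 29 members called in infested against naive Brahman skin (horizontal axis; 12 members were left by the low-signal filter) under each setting (vertical axis), blue for lower and red for higher in infested animals. The bar reaches 20 without naive Brahman 1 and 2 without naive Brahman 2 or 3.

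In Holstein-Friesian skin 0 of the 29 members were called between infested and naive animals, against 5.02% of all probe sets, and 1 member (CKM) had an unadjusted p under 0.05 in limma. The median difference of the members was -0.25, against -0.03 over all probe sets, and 21 of the 29 lay below 0. The arrays did not overlap for 7 members on the lower side, against 16% of all probe sets, and for 3 on the higher side, against 14.4%. Without naive Brahman 1, infested Holstein-Friesian 3 or infested Brahman 1 the count of called members was 1. Over all probe sets it was 974, 275 and 2563 in these fits, against 1206 with all arrays. Between naive Brahman and naive Holstein-Friesian skin 0 were called, against 0.025% of all probe sets, with 10 at an unadjusted p under 0.05 and a median of 0.73. The nearest was MYBPC1, higher in naive Brahman animals by 2.04 ± 0.44 (SE, adjusted p = 0.248 by limma), with all 3 Brahman arrays above all 3 Holstein-Friesian ones. Over the members, naive Brahman arrays lay wholly above for 2 and wholly below for 1, against 7.25% and 7.21% of all probe sets. Without naive Brahman 1 the count of called members was 9, with 37 called over all probe sets. That fit keeps only naive Brahman 2 and 3, the muscle-rich arrays of their group, so no breed difference is read from it. Between the 2 infested groups, of the same age, 0 were called, against 0.167% of all probe sets, 1 (TCAP) had an unadjusted p under 0.05 and the median was 0.07.

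The effect of infestation was not shown to differ between the breeds for any member. Of the 29, 0 were called in that test, against 0.00416% of all probe sets, and 4 had an unadjusted p under 0.05 in limma. Without naive Brahman 1 the count was 4, all more negative in Brahman animals, with 15 called over all probe sets. As that fit keeps only the muscle-rich naive Brahman arrays, no breed difference is read from it. MYBPC1 had the smallest p with all arrays, at a Brahman minus Holstein-Friesian difference of -1.88 ± 0.62 log2 (SE, adjusted p = 0.602).

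Muscle genes outside the list were read against the same share of all probe sets, 19.8% in Brahman and 5.02% in Holstein-Friesian skin. Of 31 measured genes of the sarcomere and of muscle proteins outside the list, 0 were lower and 2 higher in infested Brahman skin, TMOD1, which caps the thin filament, by 1.62 log2 (adjusted p = 0.013 by limma) and EEF1A2, a translation factor of muscle and nerve, by 0.74 (adjusted p = 0.0341). In Holstein-Friesian skin 1 of the 31 was called, PFKM, the phosphofructokinase of muscle, higher by 0.71 (adjusted p = 0.0497). As a list, the 31 genes had levels of -0.21, 0.18 and 0.26 in naive Brahman 1, 2 and 3. Their median difference in Brahman skin was 0.04, with 15 of the 31 below 0. SMPX, a small muscle protein, and KLHL41, which stabilises the sarcomere, were picked after their values were seen, because they followed the members. Their match with the members is therefore set by that choice. SMPX stood at 3.77, 7.24 and 8.26 and KLHL41 at 3.80, 7.08 and 7.66 in the naive Brahman arrays, and both lay between 3.76 and 4.57 in all infested arrays. Neither passed (adjusted p = 0.0645 and 0.0896). The intermediate filament gene DES, which smooth muscle expresses as well, stood at 9.61, 10.32 and 9.89 in the naive Brahman and at 10.81, 10.59 and 11.06 in naive Holstein-Friesian animals, in another order than the members.

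Of 15 genes of excitation and calcium release, 0 were called in infested against naive Brahman skin by limma, and 0 had an unadjusted p under 0.05. CACNA1S, the voltage sensor of the muscle membrane, lay between 3.97 and 4.49 in all 12 arrays. Of 9 myogenic regulators, 1 was called, MEF2A, higher by 0.70 (adjusted p = 0.0269), and the muscle regulator MYOD1 lay between 5.97 and 6.63. Of 9 developmental and cardiac isoforms, the cardiac actin gene ACTC1 had a log2 difference of -0.89 (adjusted p = 0.0366) and the embryonic myosin MYH3 was higher by 0.66 (adjusted p = 0.0198).

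The markers of other cells of the skin were read beside the members. In Brahman skin 10.2% of all probe sets were called lower and 9.54% higher. In Holstein-Friesian skin 5.02% were called in either direction. The level of 8 smooth muscle genes was 0.46, 0.45 and 0.61 in naive Brahman 1, 2 and 3, where the skeletal level was -0.46, 1.27 and 1.82. Of these 8 genes, 4 were lower in infested Brahman skin by limma, ACTA2, MYH11, CNN1 and CALD1, and the level was -1.63, -0.73 and -0.10 there. The 10 adipocyte genes stood at -0.20, -0.04 and -0.53 in the naive Brahman arrays and at 1.05, 0.41 and 0.56 in the infested ones, with 4 called higher. The 7 dermal fibroblast genes stood at -0.84, -0.57 and -0.60 and then at 0.40, 0.70 and 0.56, with 6 called higher. In the same order the 6 glandular epithelium genes stood at 0.99, 0.19 and 0.73 and then at -1.03, -0.31 and -0.24, with 4 called lower and 1 higher. Within the naive Brahman group the 3 Schwann cell and nerve genes, at -0.32, 0.04 and 0.12, and the fibroblast genes were lowest in animal 1, as the members were, over a smaller span. The 7 endothelial genes, at -0.188, -0.184 and 0.033, were lowest there too, with animals 1 and 2 nearly level. Epidermal keratinocyte, endothelial and Schwann cell genes had no call in this comparison, and their levels lay between -0.34 and 0.41 in all 12 arrays. In Holstein-Friesian skin the calls were 4 glandular genes lower, 2 fibroblast genes and 1 adipocyte gene higher, and 0 of the smooth muscle genes. The part of these cell types in the muscle result was not tested.

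**Figure D5:**
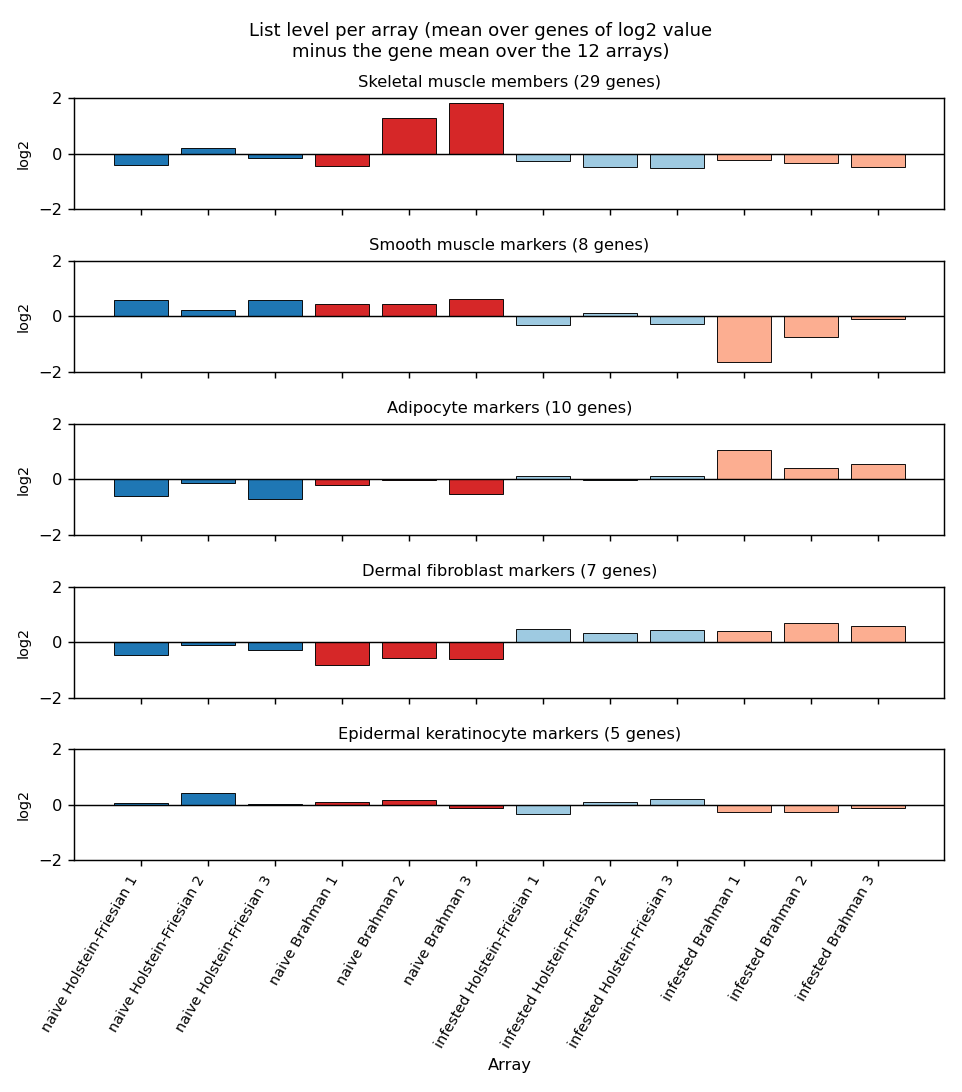
List level in each of the 12 arrays (bars, log2, mean over the genes of a list of the value minus the gene's mean over the 12 arrays) for the skeletal muscle members and 4 lists of marker genes. The skeletal level is 1.27 and 1.82 in naive Brahman 2 and 3 alone, while the smooth muscle level is nearly even over the 3 naive Brahman arrays.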

How the data were processed

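The deposited values, 1 for each probe set on each array, are log2 expression from RMA run by the authors, per the submitters' processing notes (software and chip definition not given in the sources used here); that they are log2 was judged from their range. Tests and the choice of probe sets ignored the 112 controls, so ACTA1 was read from its non-control probe set. Gene names came from the platform annotation, and the gene ID of all 29 members was found in the RefSeq table (ARS-UCD2.0). A linear model with a mean for each of the 4 groups was fitted to the 12 arrays in limma 3.58.1 (R 4.3.3); it had 8 residual degrees of freedom and a prior worth 3.03. P-values were adjusted over 24016 probe sets within each of 5 comparisons. A list level is the mean over genes of the value minus the gene's mean over the 12 arrays. Naming covered every measured member, up to 4 called genes of each other muscle list, and marker lists by level and count. SMPX, KLHL41, DES, CACNA1S, MYOD1 and the called smooth muscle markers were named beyond this rule. Members, lists and settings were chosen with earlier results of these data known. The procedure was tested on simulated data. No detection calls were used, which leaves signal over background unknown; precision is limited by how few arrays there are. The animals were separate, 1 array each.

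Replicate numbers recur in the 4 groups. For naive and infested Holstein-Friesian animals, arrays with the same number deviated from their group means together (correlations of 0.113 to 0.249), which by the rule used counts as paired, though no label ties these animals. In the other 5 pairs of groups at least 1 such correlation was under 0.1. The rule did not set these values against correlations between arrays of different number, and naive and infested animals were different animals. It therefore does not show that the arrays were paired. Alternatives were a low-signal filter, cyclic loess, median centring, a robust trended prior, fitting only the arrays compared, array weights, the replicate block, each array left out, the integrity index as a covariate, dropping the 2 arrays of lowest index, and the mean of a gene's probe sets. The probe set of largest span, which favours probe sets that vary, was added after seeing the data.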

Additional observations from a re-analysis of the deposited data

How the results depend on the processing

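In infested against naive Brahman skin the 8 members called became 3 with the low-signal filter, which left 12 members to test. The count was 2 with only the arrays compared, 19 with array weights and 2 when the integrity index was a covariate. In that order, the calls over all probe sets were 3665 (of 14409 left), 3000, 7657 and 1808, against 4753. Counts of members ran from 2 to 20 when single arrays were left out. In infested against naive Holstein-Friesian skin the count of 0 became 1 with only the arrays compared, with array weights and with the index as a covariate. Over all probe sets these settings called 1245, 4589 and 2022, against 1206. Leaving out 1 array gave 0 to 1. Between the naive breeds the count of members became 6 with array weights, where 400 of all probe sets were called, against 6 with all arrays weighted alike. Leaving out 1 array gave 0 to 9 there, and 0 to 4 for the difference between breeds in the infestation effect. Between the infested breeds the count of members was 0 under every setting run. With the replicate block the counts were 9 in Brahman and 0 in Holstein-Friesian animals (4765 and 1047 over all probe sets), and the block ended no call of a member. With the mean of its probe sets CKM stood at -0.36, the opposite direction, because its 2 probe sets oppose each other. With the probe set of largest span the level of the members was -0.45 and -0.61 for infested Holstein-Friesian arrays 1 and 2 and -0.62 for array 3 of the infested Brahman group. The level rose more in naive Brahman 2 and 3, to 1.62 and 2.27, from 1.27 and 1.82 at the probe sets of highest mean. MYOT was called in 7 of 21 alternatives and in 1 of 12 with an array left out, and NEB in 9 of 21. Without naive Brahman 1 the MYOT difference was -3.74 and without naive Brahman 3 it was -1.78. The cause of the other changes was not tested.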

Other observations

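The array has 3 control probe sets, left out of the tests above, that carry the symbol ACTA1 in the platform annotation and lie toward the 3′ end, the middle and the 5′ end of the transcript by their names. Toward the 3′ end the values were 7.54, 10.58 and 8.93 in naive Holstein-Friesian and at 7.89, 11.97 and 12.35 in naive Brahman animals, against at most 7.82 in the infested arrays. In the middle the values were 6.24, 7.78 and 6.55, then 5.83, 10.11 and 10.52, against 5.13 to 5.64. Toward the 5′ end they were 6.96, 8.29 and 7.29, then 7.18, 8.67 and 8.91, against 6.79 to 7.33. All 3 put naive Brahman 3 first, then naive Brahman 2, then naive Holstein-Friesian 2, as the tested ACTA1 probe set did. The span was smallest toward the 5′ end.

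Among the 29 members, the fast troponin genes TNNI2 and TNNT3 were the only pair with at most 4 protein-coding genes between them in the RefSeq table, with 2 between. Their spans over the 12 arrays were 2.18 and 1.51 log2.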
